A study of Mus musculus with 18 samples.

Results

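Small nucleolar RNA (snoRNA) host genes are noncoding genes whose introns carry snoRNAs. The 6 described here, Gas5, Snhg1, Snhg5, Snhg6, Snhg8 and Snhg12, were taken by gene symbol from a fixed list. All 6 were found in the mRNA table of sgNAT10 and WT cells, among 17379 genes, in the ribosome footprint table, among 10974 genes, and in the sgMyc table, among 28738 genes. Only Gas5 and Snhg1 were found among the 1062 genes of the table of acetylated RNA peaks. The genes were chosen by name with their mRNA and footprint values in these same libraries known, so their changes are described with errors and no p-value is attached to them. In the RefSeq annotation of GRCm38.p6 the label held for each gene, since all 6 enclose at least 1 snoRNA and 24 in all. Gas5 and Snhg1 enclose 8 each, Snhg12 encloses 4, Snhg5 encloses 2, and Snhg6 and Snhg8 enclose 1 each.

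The host transcript and its snoRNAs come from the same precursor and part at splicing. The introns are trimmed to snoRNAs, which guide ribose methylation (box C/D type) or pseudouridine formation (box H/ACA type) in ribosomal and other RNAs, while the joined exons go to the cytoplasm as a long noncoding RNA. Many of these spliced RNAs, Gas5 among them, hold short reading frames, are engaged by ribosomes and are then removed by nonsense-mediated decay. Several start with a terminal oligopyrimidine (TOP) tract, the same signal that ribosomal protein mRNAs use to tie their translation to mTORC1. NAT10 is the nuclear enzyme that makes N4-acetylcytidine in ribosomal and transfer RNA, and Myc is a transcription factor whose targets include many ribosome biogenesis genes.

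The libraries came from TC1 cells, which the labels describe as a mouse fibrosarcoma line. The edited lines were sgNAT10, made with a guide RNA against Nat10, and sgMyc, made with a guide RNA against Myc, and both were set against unedited WT cells. The labels name no control guide, do not say whether an edited line is a single clone, and do not say whether replicates were separate cultures, so errors measure only the spread between these libraries. There were 2 mRNA and 2 Ribo-seq libraries each of sgNAT10 and WT cells, 3 mRNA libraries each of sgMyc and WT cells in a separate set, and 1 acetylated RNA immunoprecipitation (acRIP) with its input per genotype. Levels are given as FPKM, fragments scaled to gene length and library depth, which allows comparison between genes within a table.

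Depth and identity limit what follows. The mRNA libraries held 15338923 to 16202607 gene reads in sgNAT10 cells and 16870982 to 20022763 in WT cells. The Ribo-seq libraries were shallower, at 3448753 and 1676620 gene reads in sgNAT10 cells and 3150394 and 3022457 in WT cells. The sgMyc set held 57363229 to 65768024 counts in sgMyc cells and 51875052 to 55900895 in WT cells. Nat10 mRNA was 3.59 and 3.95 FPKM in sgNAT10 cells, against 5.36 and 5.30 FPKM in WT cells. Myc mRNA was 21.1, 20.9 and 34.1 FPKM in sgMyc cells, against 64.8, 61.6 and 70.8 FPKM in WT cells. Of 10 fibroblast markers, 8 were listed in the first mRNA table, summing to 517 to 541 FPKM in sgNAT10 cells and 270 to 278 FPKM in WT cells. Limma called 4 of the 6 it tested higher and 2 lower in sgNAT10 cells (adjusted p under 0.05). Of all genes, 33.7% were called higher and 29.6% lower. Of 8 epithelial markers 2 were listed in the first mRNA table, and neither reached 1 FPKM in any of the 4 libraries. Of 6 immune markers 2 were listed, summing to 2.92 to 3.46 FPKM in sgNAT10 cells and 3.08 to 3.85 FPKM in WT cells. The part that the different fibroblast marker level has in the host gene values was not tested.

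The library labelled sgMyc replicate 3 stood apart from the other libraries of its group. Over 11907 genes its log2 levels correlated at r = 0.930 with each of the other sgMyc libraries and at r = 0.959 to 0.963 with the WT libraries. The other sgMyc libraries correlated with each other at r = 0.995, and the WT libraries did so at r = 0.993 to 0.994. Every sgMyc fold change and call of the 6 host genes is therefore given with and without that library.

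The first bases of a host transcript show whether it could carry a TOP tract, so 30 bases around each annotated start are shown for the 5 genes with a RefSeq promoter entry, 2 starts in the case of Gas5. The capitals mark a C followed by at least 4 C or T on the sense strand, counted only where all of these letters lie between 10 bases before and 10 bases after the start. Each line runs 5′ to 3′ from 10 bases before the start, with coordinates in GRCm38.p6, the assembly that mm10 also names.
Gas5 first start, chr1:161034591-161034620 (+): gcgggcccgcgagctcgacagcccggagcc
Gas5 second start, chr1:161035156-161035185 (+): ccatctcagCCTTTCggagctgtgcggcat
Snhg1, chr19:8723477-8723506 (+): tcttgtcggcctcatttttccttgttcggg
Snhg5, chr9:88522878-88522907 (-): gcggtgaaccgggctcgttcttttacgacg
Snhg8, chr3:123508317-123508346 (-): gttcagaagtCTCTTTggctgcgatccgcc
Snhg12, chr4:132308668-132308697 (+): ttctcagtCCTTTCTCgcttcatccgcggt

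The second Gas5 start, Snhg8 and Snhg12 held such a tract, of 6, 6 and 8 bases. A run in Snhg5 begins inside the window but ends beyond it and is not counted. That is 3 of 6 host gene starts (50%), beside 26.5% of all 32851 RefSeq mouse starts and 50.7% of the 69 starts of cytosolic ribosomal protein genes. Searched on both strands over the 300-base promoter entries, the Myc-type E-box CACGTG was in 0 of the 6 host gene entries and in 7.15% of all entries. These matches describe letters in RefSeq and were not measured in the cells, and a missing match says only that the letters are not in that window. No start of Snhg6 is shown.

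The spliced host transcripts were lower in sgNAT10 cells for 5 of the 6 genes, with Snhg8 furthest from WT and Snhg6 overlapping it. Snhg8, the host of the H/ACA snoRNA Snora24, was at 14.1 and 15.2 FPKM in sgNAT10 cells, against 28.5 and 26.9 FPKM in WT cells, from 207 to 532 reads a library. The groups were far apart, with a log2 fold change of -0.88 (SE 0.052), and Snhg8 was the third most abundant of the 6 transcripts in sgNAT10 cells, behind Gas5 and Snhg6, and the second in WT cells. In these bulk libraries, fewer cells that express a gene and less of its RNA per cell cannot be told apart.

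Snhg12, which carries H/ACA snoRNAs and the box C/D snoRNA Snord99, had 4.71 and 3.85 FPKM in sgNAT10 cells, against 7.75 and 6.66 FPKM in WT cells. Its log2 fold change was -0.64 (SE 0.105), and it was the least abundant of the 6 in both genotypes. Snhg1, host of Snord22 and 7 other snoRNAs, had 9.81 and 8.43 FPKM in sgNAT10 cells, against 14.9 and 13.8 FPKM in WT cells. Its log2 fold change was -0.60 (SE 0.080), and no sgNAT10 library of either gene reached the lower WT library.

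Gas5, first described as a transcript that accumulates in growth-arrested cells, was the most abundant host transcript, with 22.0 and 23.6 FPKM in sgNAT10 cells, against 30.1 and 31.5 FPKM in WT cells. The log2 fold change of Gas5 was -0.42 (SE 0.047). Snhg5 had 7.68 and 7.99 FPKM in sgNAT10 cells, against 10.4 and 10.2 FPKM in WT cells. For both genes the sgNAT10 libraries lay below both WT libraries, and the log2 fold change of Snhg5 was -0.36 (SE 0.043). Snhg6, host of the box C/D snoRNA Snord87, differed from the other genes in that its groups overlapped, at 19.7 and 18.6 FPKM in sgNAT10 cells and 21.9 and 19.4 FPKM in WT cells. Its log2 fold change was -0.10 (SE 0.067).

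In the fit of all genes (limma on log2(FPKM + 1), adjusted p under 0.05), 5 of the 6 host genes were called lower, as were 29.6% of the 11735 genes tested (33.7% were called higher, 63.3% either way). The same 5 had sgNAT10 libraries wholly below the WT libraries, as did 39% of all genes. Since these values chose the genes, nothing is read from either count. The median log2 fold change of the 6 was -0.51, beside 0.01 for all genes. Levels of 2 of the genes carry a further limit, because Gas5 overlaps Zbtb37 and Snhg6 overlaps Mcmdc2 in RefSeq, and the sources used here do not say whether reads were counted by strand.

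**Figure D1:**
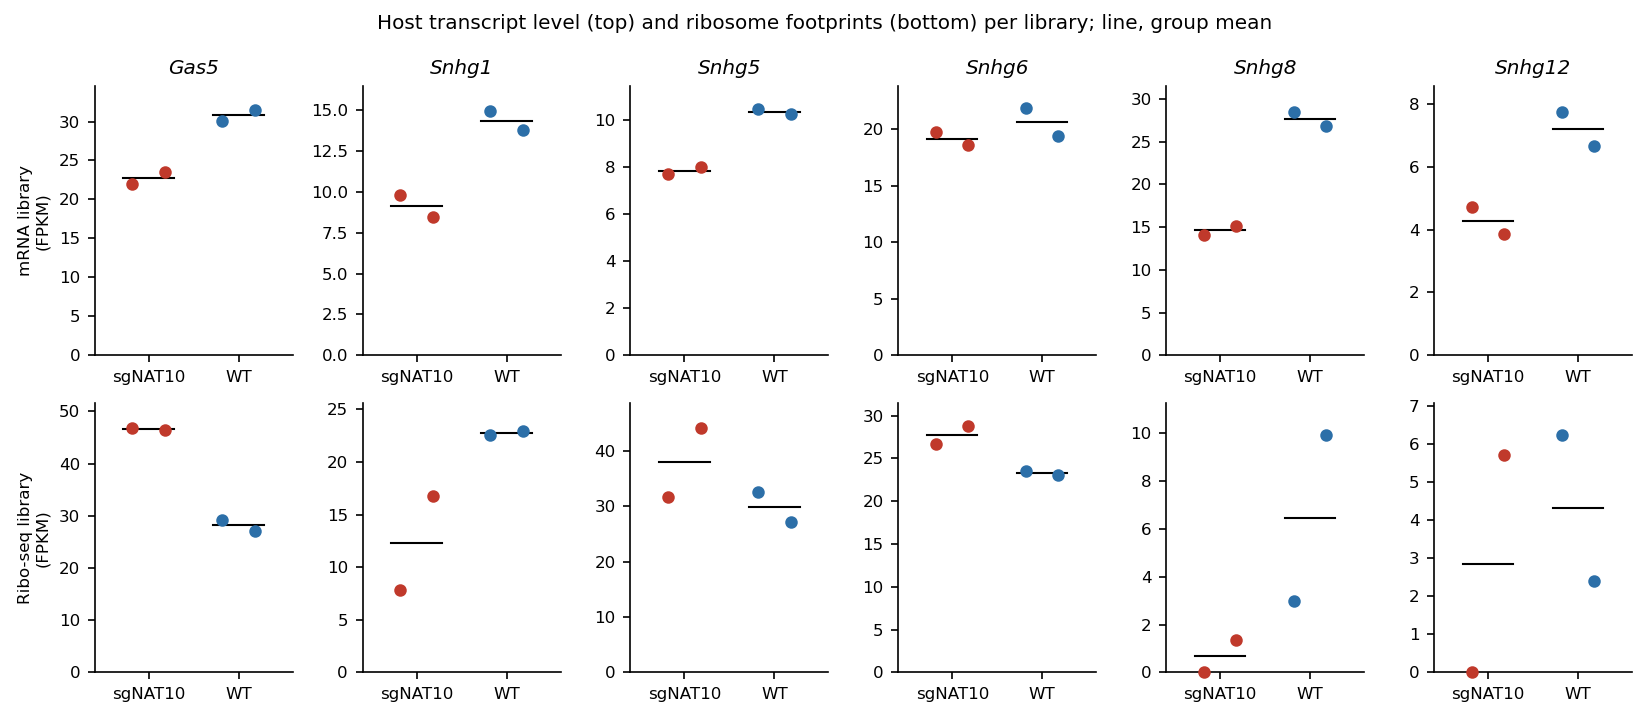
Level of each host transcript in mRNA libraries (upper panels) and Ribo-seq libraries (lower panels), in FPKM on axes that start at 0; each point is a library and each line the mean of the 2 libraries. In the upper panels every sgNAT10 point lies below the WT points except for Snhg6, while in the lower panels Gas5 lies above WT and Snhg1 and Snhg8 lie below it.

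Ribosome footprints did not follow the transcripts in all 6 genes. Gas5 gave 46.8 and 46.4 FPKM of footprints in sgNAT10 cells, against 29.2 and 27.1 FPKM in WT cells. The replicates lay close together and the genotypes were well apart, so Gas5 stood higher in footprints and lower in mRNA. It was also the gene with the most footprint reads, 628 and 301 in sgNAT10 cells and 346 and 313 in WT cells, and its log2 fold change was 0.71 (SE 0.181). Over the pooled reads the ratio of sgNAT10 to WT was 1.66, with an exact 95% interval of 1.50 to 1.83 that covers counting error only.

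Snhg5 gave 31.7 and 44.2 FPKM in sgNAT10 cells, against 32.6 and 27.1 FPKM in WT cells. These groups overlapped, with a log2 fold change of 0.32 (SE 0.239), and in WT cells Snhg5 and Gas5 were the highest of the 6 without being distinct from each other. Snhg6 gave 26.6 and 28.8 FPKM in sgNAT10 cells, against 23.5 and 23.0 FPKM in WT cells. Its groups did not overlap, although the log2 fold change of 0.24 (SE 0.20) was close to its error. The pooled ratios were 1.20 (exact 95% interval for counting error 1.02 to 1.40) for Snhg5 and 1.18 (0.942 to 1.47) for Snhg6.

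Snhg1 gave 7.83 and 16.8 FPKM of footprints in sgNAT10 cells, against 22.5 and 22.9 FPKM in WT cells. Both sgNAT10 libraries were below WT, but they differed more from each other than the WT libraries did, and the log2 fold change of -0.92 had an SE of 0.370. Its pooled ratio of sgNAT10 to WT was 0.473, with an exact 95% interval of 0.393 to 0.567 for counting error. Snhg8 was nearly free of footprints, with 0 and 2 reads (0 and 1.36 FPKM) in sgNAT10 cells, against 8 and 26 reads (2.97 and 9.93 FPKM) in WT cells. The 0 in the first sgNAT10 library allows a level of up to 0.985 FPKM (3 reads). Its pooled ratio of sgNAT10 to WT was 0.069, with an exact 95% interval of 0.0080 to 0.270. Snhg12 gave 0 and 16 reads (0 and 5.70 FPKM) in sgNAT10 cells, against 32 and 12 reads (6.24 and 2.40 FPKM) in WT cells. Its groups overlapped and the libraries of each genotype disagreed, while its pooled ratio was 0.427, with an exact 95% interval for counting error of 0.225 to 0.772.

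None of the 6 host genes passed the threshold for footprints in limma's fit, where 3.09% of 9707 genes did (1.81% higher, 1.28% lower). Gas5 and Snhg6 lay wholly above WT, as did 25.6% of all genes, and Snhg1 and Snhg8 lay wholly below it, as did another 25.6%. At an unadjusted p under 0.05 the same fit called 2009 genes, and edgeR on whole reads recovered from the FPKM values called 772 genes at the adjusted threshold, with none of the 5 host genes it could test among them.

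**Figure D2:**
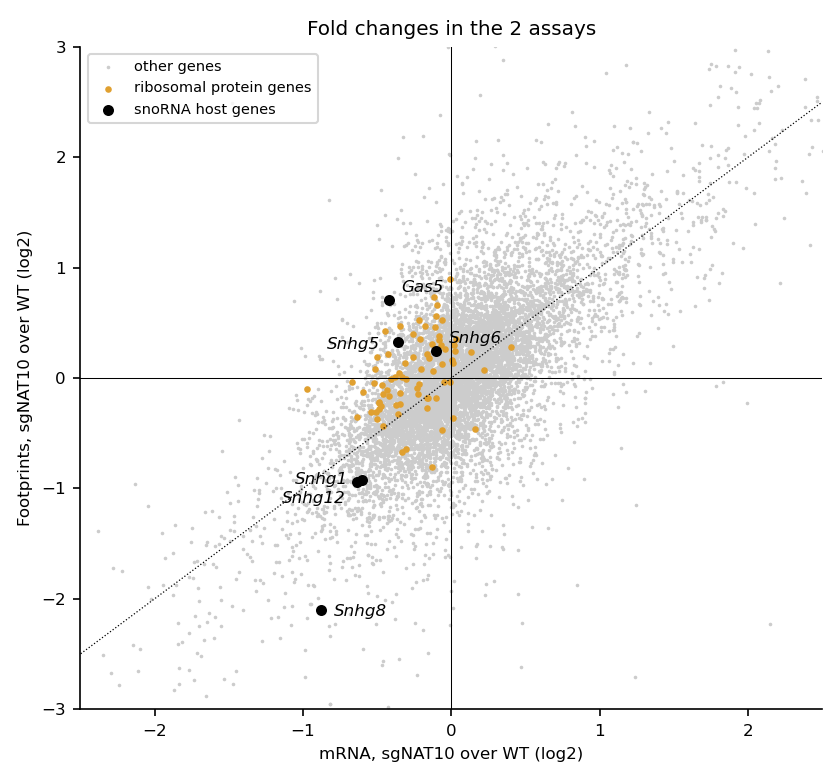
Log2 fold change of footprints (vertical) against log2 fold change of mRNA (horizontal), sgNAT10 over WT, for 9199 genes with at least 1 FPKM on average in both assays; the dotted line marks equal change, and 94 genes fall outside the axes. Gas5 and Snhg5 stand left of 0 and above 0, with lower mRNA (-0.42 and -0.36) and footprint changes above 0 (0.71 and 0.32), and Snhg8 stands far below the line.

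Dividing the footprint level by the mRNA level of the same-numbered library gave loads that ranged widely among the 6 genes and in part overlapped. The ratio has no absolute meaning but can be ranked among genes. Of the 6, Snhg5 carried the most footprints per transcript, with ratios of 4.13 and 5.54 in sgNAT10 cells and 3.12 and 2.65 in WT cells. Its mean ratio was above 98.4% of 9200 genes in sgNAT10 cells and above 91.7% in WT cells, although it has no annotated protein. Snhg1 followed in WT cells, with ratios of 0.798 and 1.99 in sgNAT10 cells and 1.51 and 1.67 in WT cells. Snhg6 had 1.35 and 1.55 in sgNAT10 cells and 1.07 and 1.19 in WT cells, near the median of all genes (1.14 in sgNAT10 cells, 1.15 in WT cells). Snhg12 had 0 and 1.48 in sgNAT10 cells and 0.806 and 0.361 in WT cells, and its sgNAT10 pairs enclosed both WT pairs. Low and high loads were also found in 8 other noncoding snoRNA hosts. Their mean ratios ran from 0.275 (Snhg17) to 15.6 (Snhg9) in sgNAT10 cells. In WT cells they ran from 0.196 (Snhg17) to 15.1 (Snhg9).

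Gas5 showed the clearest difference between genotypes in this ratio, 2.12 and 1.97 in sgNAT10 cells, against 0.969 and 0.860 in WT cells. Its place among genes was at the 80.6th percentile in sgNAT10 cells and the 39.0th in WT cells. In the fit of both assays its footprint change exceeded its mRNA change by 1.13 on the log2 scale (SE 0.259). The same quantity was 0.68 (SE 0.266) for Snhg5, 0.34 (SE 0.359) for Snhg6, -0.32 (SE 0.489) for Snhg1 and -0.30 (SE 0.914) for Snhg12. None of the 6 was called, in a fit where 3 of 9200 genes (0.0326%) were, all of them lower, and where 745 genes had an unadjusted p under 0.05.

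Snhg8 was at the other end, with ratios of 0 and 0.089 in sgNAT10 cells and 0.104 and 0.369 in WT cells. That placed it at the 0.598th percentile in sgNAT10 cells and the 4.90th in WT cells, and its log2 difference between the assays was -1.23 (SE 0.572). That value ran from -2.0 without WT replicate 1 to -0.46 without WT replicate 2, with -0.66 without sgNAT10 replicate 1, and was -2.95 with a pseudocount of 0.1. Long noncoding RNAs listed as nuclear were used as a background for these ratios, although where they lie in these cells was not measured. Malat1, an abundant nuclear speckle RNA, had mean ratios of 0.062 in sgNAT10 cells and 0.087 in WT cells, and Neat1, the scaffold of paraspeckles, had 0.035 in sgNAT10 cells and 0.025 in WT cells. Tug1 had 0.174 in sgNAT10 cells and 0.058 in WT cells. With Firre and Pvt1, 5 nuclear RNAs had at least 1 FPKM of mRNA on average over both genotypes. Their mean ratios ran from 0.035 to 0.311 in sgNAT10 cells and from 0.025 to 0.145 in WT cells. The 0.311 is that of Firre, which had 0.823 and 0.706 FPKM of mRNA and 14 and 0 footprint reads in sgNAT10 cells. The mean ratio of Snhg8 was 0.046 in sgNAT10 cells, within the range of these 5 RNAs. In WT cells it was 0.233, above their range, although the ratio of WT replicate 1, 0.104, lay within it. The genotypes are therefore not told apart by this range. Gas5, Snhg1, Snhg5 and Snhg6 were above the range of these 5 RNAs in their genotype in every library. Airn, also listed as nuclear, had less than 1 FPKM of mRNA in every library and is not in that range. Its mean ratios were 2.59 in sgNAT10 cells and 0.731 in WT cells, from 3 to 25 footprint reads a library. In sgNAT10 cells the ratios of Gas5, Snhg1 and Snhg6 were below that of Airn, while in WT cells they were above it.

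**Figure D3:**
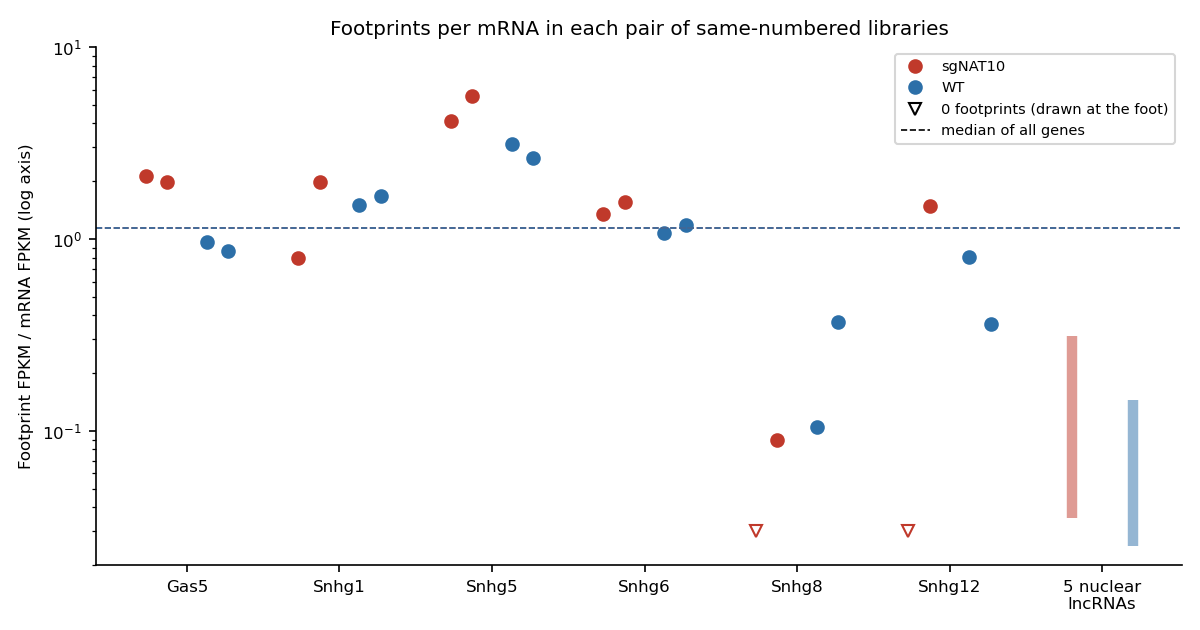
Footprint FPKM over mRNA FPKM on a log axis for each pair of same-numbered libraries, with sgNAT10 left of WT; open triangles are ratios of 0, bars at the right span the mean ratios of 5 nuclear long noncoding RNAs, and dashed lines are the medians of all genes. Gas5 lies at 2.12 and 1.97 in sgNAT10 cells and at 0.969 and 0.860 in WT cells, and Snhg5 lies above the median in all 4 pairs. The mean ratio of Snhg8 is 0.046 in sgNAT10 cells, within the span of the nuclear RNAs. In WT cells it is 0.233, above the span, although the pair of WT replicate 1, at 0.104, lies within it.

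Of the 24 snoRNAs inside the host genes, only Snord87, in an intron of Snhg6, was listed in the sgNAT10 tables. It gave 174 and 140 FPKM (54 and 21 reads) in the Ribo-seq libraries of sgNAT10 cells, against 69.3 and 63.7 FPKM (19 and 17 reads) in those of WT cells. The groups were apart, and limma called the gene higher, with a log2 fold change of 1.22 (SE 0.169, adjusted p = 0.025). The mRNA libraries held 2 and 2 reads in sgNAT10 cells and 2 and 5 reads in WT cells, too few for a level. A snoRNA is not translated, so its fragments in a Ribo-seq library are not ribosome footprints. The sources used here do not say whether such fragments also entered the count of Snhg6. The same limit holds for the Ribo-seq values and ratios of all 6 host genes, Gas5 and Snhg5 among them, since each encloses at least 1 snoRNA. In the sgMyc set, 27 snoRNA rows lie inside the 6 genes, and their counts do not exceed 4 in any library, so no level is given for them.

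The authors' deposited table of acRIP peaks held 4 peaks inside the 6 genes, among 1358 peaks in mm10. In Snhg1 a peak of 211 bases at chr19:8725843-8726053 had a fold enrichment of 1.80 over input and enclosed Snord22. In the same table Snord22 itself had a peak with a fold of 2.10. The Gas5 peak, 180 bases at chr1:161035138-161035317, had a fold of 1.58, covered the second annotated start shown above and ended 76 bases before the first snoRNA. In Snhg8 the peak lay on Snora24 and had a fold of 1.40. The median fold of all 1358 peaks was 1.77, so the Gas5 and Snora24 peaks were below it and the Snhg1 and Snord22 peaks above it. The authors' deposited table also gives a log2 difference between genotypes, 0.404 for the Snhg1 peak, 0.474 for Snord22, 0.166 for Gas5 and -0.376 for Snora24. The genotype on top of that difference is not given in the table, and with 1 immunoprecipitation per genotype it has no replicate check.

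In sgMyc cells all 6 host transcripts were lower in replicates 1 and 2 than in every WT library, and replicate 3 shared this only for Snhg1, Snhg8 and Snhg12. Marker sums also moved in these libraries. The 10 fibroblast markers summed to 1205, 1200.4 and 851 FPKM in sgMyc cells, against 1039 to 1063 FPKM in WT cells. Single markers moved further than the sum. Of 9 tested, edgeR called 3 higher and 1 lower (median log2 fold change 1.86), beside 7.11% and 8.86% of all genes. Without replicate 3 it called 8 of 10 higher and 1 lower (median 2.49), beside 26.6% and 26.9%. The 3 immune markers listed, of 6, summed to 7.20, 6.85 and 2.44 FPKM in sgMyc cells, against 2.97 to 3.97 FPKM in WT cells, and the 6 epithelial markers listed, of 8, stayed under 1 FPKM in sum in all 6 libraries. The part of these markers in the host gene values was not tested. Among the host genes Snhg8 was the steadiest, with 9.65, 9.60 and 9.45 FPKM in sgMyc cells, against 17.1, 18.4 and 16.2 FPKM in WT cells. All 3 sgMyc libraries lay together, and the log2 fold change was -0.85 (SE 0.101) with replicate 3 and -0.81 (SE 0.095) without it. Snhg1 had 9.60, 11.2 and 20.8 FPKM in sgMyc cells, against 24.4, 24.8 and 25.1 FPKM in WT cells. Replicate 3 lay closer to WT than to its own group, and the log2 fold change was -0.83 (SE 0.295) with it and -1.22 (SE 0.064) without it.

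Gas5 had 18.4, 18.6 and 35.2 FPKM in sgMyc cells, against 34.2, 32.9 and 33.4 FPKM in WT cells. Replicate 3 was above every WT library here, and the log2 fold change was -0.46 (SE 0.268) with it and -0.81 (SE 0.035) without it. Snhg5 had 4.49, 5.08 and 8.08 FPKM in sgMyc cells, against 8.02, 8.33 and 8.85 FPKM in WT cells. Its log2 fold change was -0.50 (SE 0.232) with replicate 3 and -0.77 (SE 0.080) without it. Replicate 3 fell within the range of the WT libraries for this gene.

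Snhg12 had 1.98, 2.08 and 3.56 FPKM in sgMyc cells, against 3.83, 3.60 and 3.86 FPKM in WT cells. Its log2 fold change was -0.56 (SE 0.251) with replicate 3 and -0.85 (SE 0.106) without it, and replicate 3 was just below the lowest WT library. Snhg6 had 4.61, 4.58 and 7.35 FPKM in sgMyc cells, against 5.76, 6.34 and 6.10 FPKM in WT cells. Replicate 3 exceeded WT by more than the spread of the WT libraries, and the log2 fold change was -0.13 (SE 0.209) with it and -0.37 (SE 0.070) without it.

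With all libraries, edgeR's quasi-likelihood test called 1 of the 6 lower, Snhg8, beside 8.86% of 16794 genes called lower (7.11% higher, 16% either way). Without replicate 3 it called all 6 lower, beside 26.9% of 17485 genes (26.6% higher, 53.6% either way). Groups did not overlap for Snhg1, Snhg8 and Snhg12 with all libraries, as for 21.7% of all genes in that direction, and for all 6 without replicate 3, as for 37.4% of all genes. These counts are read no further, since the genes were picked with them known.

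**Figure D4:**
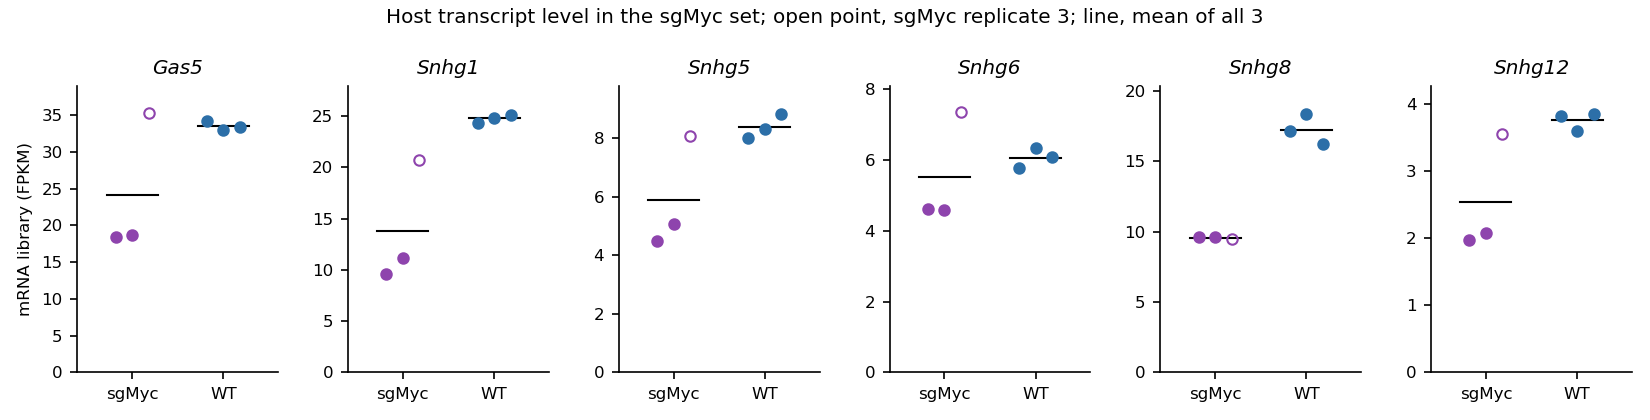
Level of each host transcript in FPKM in the 3 sgMyc and 3 WT mRNA libraries of the separate sgMyc set; the open point is sgMyc replicate 3 and lines are means of all 3 libraries. Snhg8 is the gene whose 3 sgMyc points lie together (9.65, 9.60 and 9.45 FPKM), while for the other genes replicate 3 lies above replicates 1 and 2.

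The edited lines can be set side by side, each against its own WT libraries, although the sets were counted separately and their fold changes are on different scales. Snhg8 had a fold change of -0.88 on the log2(FPKM + 1) scale in sgNAT10 cells and of -0.85 on the log2 count scale in sgMyc cells with all libraries. Snhg6 was nearest to WT of the 6 in both lines. Myc itself was lower in sgNAT10 cells, with 40.0 and 40.9 FPKM of mRNA in sgNAT10 cells, against 115 and 117 FPKM in WT cells (limma, adjusted p = 9.4e-06). The part that the lower Myc level has in the host gene values was not tested.

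**Figure D5:**
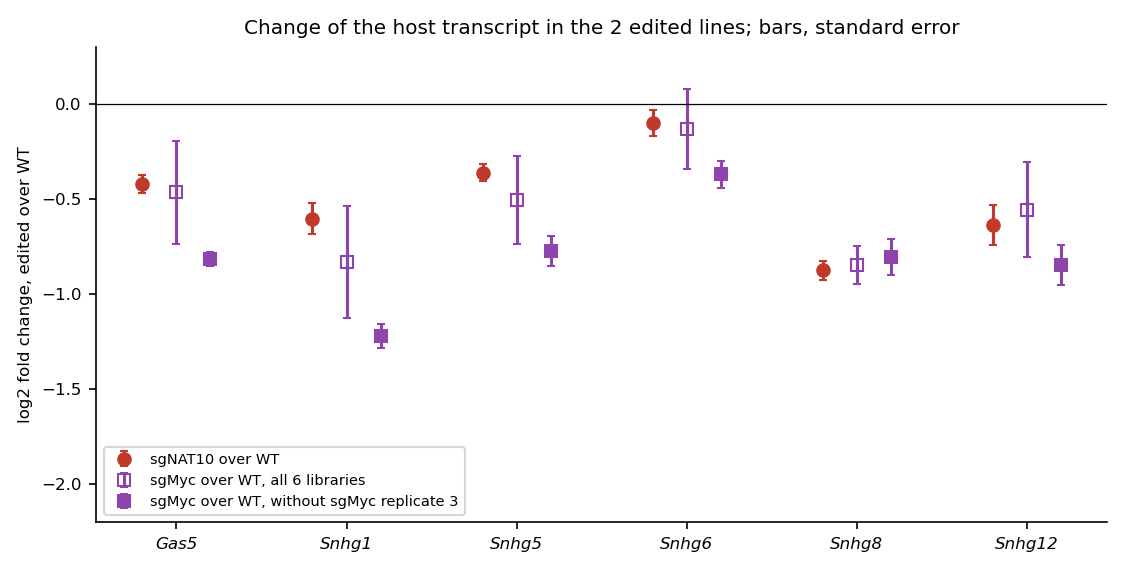
Log2 fold change of each host transcript, edited over WT, with its standard error; sgNAT10 values are on the log2(FPKM + 1) scale and sgMyc values on the log2 count scale. Snhg8 lies between -0.81 and -0.88 in all 3 fits, Snhg6 is closest to 0, and leaving out sgMyc replicate 3 moves every gene but Snhg8 further below 0.

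Other noncoding snoRNA hosts did not move in a single direction. Of 16 on a list, 10 were measured in mRNA libraries of the sgNAT10 set, with 2 higher and 6 lower in sgNAT10 cells, beside 33.7% and 29.6% of all genes, and a median log2 fold change of -0.40. Snhg3 averaged 12.8 ± 0.39 FPKM in sgNAT10 cells and 33.5 ± 3.2 FPKM in WT cells (SD, n = 2 each). Snhg9 was lower as well, by a log2 fold change of -1.05 (limma, adjusted p = 0.0071). That value rests on few reads, 9 and 10 in sgNAT10 cells and 38 and 20 in WT cells. The WT libraries of Snhg9 differed, at 9.48 and 5.95 FPKM. Snhg18 went the other way, with 14.2 ± 0.82 FPKM in sgNAT10 cells and 4.52 ± 0.64 FPKM in WT cells (SD, n = 2 each; limma, adjusted p = 0.00015). Snhg3 was also the host on this list called for footprints, 11.4 and 15.3 FPKM in sgNAT10 cells against 42.8 and 57.2 FPKM in WT cells (limma, adjusted p = 0.025). In the sgMyc set 2 of 14 were called lower, beside 8.86% of all genes, and without replicate 3, 11 of 14 were, beside 26.9%.

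Protein-coding snoRNA hosts, most of them ribosomal protein or translation factor genes, had 22 of 32 lower and 4 higher in sgNAT10 mRNA, beside 29.6% and 33.7% of all genes, with a median of -0.26. Rack1, a ribosome-bound scaffold, averaged 119 ± 2.9 FPKM in sgNAT10 cells and 255 ± 1.9 FPKM in WT cells (SD, n = 2 each). Rpl13a, a ribosomal protein, had a log2 fold change of -0.97 and Eef2, the translocation factor of the ribosome, one of -0.91. Their footprints had a median change of 0.04. In sgMyc cells 5 were called lower, beside 8.86% of all genes, and 23 were without replicate 3, beside 26.9%. Rack1 had the largest change among those called, -0.95 with replicate 3 and -0.99 without it. The 77 measured cytosolic ribosomal protein genes had 51 lower and 4 higher in sgNAT10 mRNA (median -0.22) and a footprint median of 0.01. Their median ratio of footprints to mRNA was 0.773 in sgNAT10 cells and 0.608 in WT cells. In the sgMyc set 6 of 78 were lower and 1 higher, beside 8.86% and 7.11% of all genes, and without replicate 3, 57 were lower and 3 higher, beside 26.9% and 26.6%.

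Proteins that bind and assemble snoRNAs were counted against the same background in sgNAT10 mRNA, 29.6% of all genes lower and 33.7% higher. Of 8 box C/D and H/ACA core proteins 6 were lower and 1 higher (median -0.17), led by Gar1 (-0.59), Nhp2 (-0.35) and Nop10 (-0.33), all parts of the H/ACA particle. Of 11 assembly factors 9 were lower and 1 higher (median -0.27), led by Nolc1, a chaperone of snoRNA particles, at -0.96. Nolc1 was also lower in footprints, with a log2 fold change of -1.05 (limma, adjusted p = 0.032). In footprints limma called 0 of the 8 core proteins, beside 3.09% of all genes, with 1 at an unadjusted p under 0.05. By edgeR on recovered reads 0 of them were called, beside 772 of 9996 genes. In the sgMyc set edgeR and DESeq2 both called 0 of the 8 core proteins and 0 of the 11 assembly factors, of which 0 and 2 had an unadjusted p under 0.05. Without replicate 3, edgeR called 8 and 7 of them lower, beside 26.9% of all genes.

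Beside the host genes stand the pathways that act on their spliced RNAs. Of 17 factors of nonsense-mediated decay 11 were lower and 2 higher in sgNAT10 mRNA, beside 29.6% and 33.7% of all genes, with a median of -0.15. The largest changes were in Smg8 (-0.54), which regulates the kinase Smg1, in the exon junction helicase Eif4a3 (-0.43) and in Upf1 (-0.40), the helicase at the centre of the pathway. In the sgMyc set 0 of 17 were called by edgeR (0 at an unadjusted p under 0.05) and 0 by DESeq2, and without replicate 3, 8 were lower and 2 higher, beside 26.9% and 26.6% of all genes. Of 14 regulators of TOP mRNA translation 5 were lower and 6 higher in sgNAT10 mRNA, with a median of 0.03. Among them Eif4ebp2, a repressor of cap-dependent initiation, was higher by 0.68 and Akt1s1, an inhibitory subunit of mTORC1, by 0.42, while Rptor, the subunit of mTORC1 that recruits its substrates, was lower by a log2 fold change of -0.43. In the sgMyc set edgeR called 1 of 14, which was lower (Rps6kb2), beside 8.86% of all genes called lower. DESeq2 called 7 of the 14, of which 2 were lower. Without replicate 3, edgeR called 5 lower and 6 higher, beside 26.9% and 26.6% of all genes. In footprints limma called 0 of 17 decay factors and 0 of 13 TOP regulators, beside 3.09% of all genes. At an unadjusted p under 0.05 were 3 and 1 of them. By edgeR on recovered reads 1 of each list was called, beside 772 of 9996 genes. For footprints per mRNA, limma called 0 genes of any of these lists, beside 3 of all 9200 genes. At an unadjusted p under 0.05 were 30 of the 77 ribosomal protein genes and 14 of the 32 protein-coding hosts, beside 745 of all 9200 genes. These 2 lists share genes, such as Rpl13a.

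The genes nearest to the mean pattern of the 6 over the 14 mRNA and Ribo-seq libraries were Rpl36, Dpy30, Nup107, Slc16a3 and Ppp2cb. Their distances, Euclidean on centred log2(FPKM + 1) values, ran from 0.344 to 0.481, beside a median of 1.76 over 5140 genes. The host genes themselves lay farther from their own mean, from 0.942 for Snhg1 to 2.71 for Snhg8, and their footprints went in different directions.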

How the data were processed

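Per the file headers, the deposited values are FPKM for the mRNA and footprint libraries of the sgNAT10 study arm, and counts beside FPKM for the sgMyc arm. The authors also deposited log2 fold changes, ratios (fold enrichment) of acRIP peaks over input, p-values, and log10 p-values held here as a score. The submitters' processing notes name FastQC, Trim Galore, Bowtie2, featureCounts and mm10, with no version or role. Here, log2(FPKM + 1) of genes averaging at least 1 FPKM was fitted with limma 3.58.1 (R 4.3.3). Footprints per mRNA were a genotype by assay interaction with 1 weight per assay. Counts were tested with edgeR 4.0.16 (quasi-likelihood, TMM), and DESeq2 1.42.0 was an alternative. p-values were Benjamini-Hochberg adjusted over all genes tested (threshold 0.05). Whole reads were recovered from FPKM ratios for 99.99% (mRNA) and 100% (footprints) of listed genes. The limma fits, the interaction fit and edgeR on sgMyc counts were run on simulated data, with the outcome not given here. DESeq2 and edgeR on recovered reads were not. The 6 genes and all lists were chosen with earlier results of these data known. Of each list, counts and up to 3 called genes with the largest change are given. In the main fits, same-numbered edited and WT libraries were not taken as pairs, since their deviations correlated only between -0.0181 and 0.0245. The ratios did match same-numbered mRNA and Ribo-seq libraries, a match that these correlations do not test.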

Additional observations from a re-analysis of the deposited data

How the results depend on the processing

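Host gene changes in sgNAT10 mRNA kept their direction and side of the threshold under all alternatives run. The number of genes called was 7431 for mRNA, 7229 with the replicate block and 6050 to 6856 with 1 library left out. It was 300 for footprints, against 87 with no variance trend, 772 with edgeR on recovered reads and 0 to 0 with 1 library left out (limma, 1205 to 1756 genes at an unadjusted p under 0.05). For footprints per mRNA it was 3, against 24 with no weights, 11 with the per-library ratio (replicate block), 7 with a pseudocount of 0.1, 13 at 5 FPKM or more, and 0 to 0 with 1 replicate left out (limma, 559 to 844 at an unadjusted p under 0.05). For sgMyc it was 2682, against 4325 with DESeq2, 1082 with the replicate block and 680 to 9368 with 1 library left out, the highest without sgMyc replicate 3. Directions turned in 6 cases, each with 1 library left out. With 1 library left out, the footprint change of Snhg12 ranged from -2.31 (without sgNAT10 replicate 2) to 0.43 (without sgNAT10 replicate 1). Per mRNA, Snhg1 ranged from -0.92 to 0.28 and Snhg12 from -1.79 to 1.19, without sgNAT10 replicates 2 and 1, and Snhg12 was at 0.15 without WT replicate 1. Snhg6 in sgMyc cells was at 0.010 without sgMyc replicate 1, 0.014 without replicate 2 and -0.37 without replicate 3. Beyond the fit without sgMyc replicate 3, Gas5 was called per mRNA with no weights and Snhg1 by DESeq2 in the sgMyc set. The cause was not tested. Snhg8 had too few reads for edgeR on recovered footprints. A left-out library leaves an arm with 1 sample, which is assumed to vary like the others. The pseudocount understates changes of low genes such as Snhg8 footprints. Intervals and read limits cover counting error only.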
